A study of Mus musculus with 6 samples.

Results

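Heat shock proteins and J-domain co-chaperones were followed in messenger RNA of germinal centre B cells from mouse spleen. The genes were chosen by symbol: every listed gene named as a heat shock protein (Hsp followed by a letter from a to h or by a digit) or as a J-domain protein of class A, B or C (Dnaja, Dnajb, Dnajc). Hsf1 and Bag3 were added, and the endoplasmic reticulum (ER) chaperones Hspa5, Hsp90b1, Hyou1, Dnajb9, Dnajb11 and Dnajc3 were left out. This gave 72 of 23420 genes. Some of them carry the name only: Hspg2 encodes perlecan, a matrix proteoglycan, and Hspb11 a protein of intraflagellar transport.

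Germinal centre B cells are antigen-activated B cells that divide, mutate their antibody genes and are selected in lymphoid follicles. The KO group had both Basp1 alleles floxed (genotype BASP1 fl/fl with hCD20TamCre+/-) and the WT group had both intact (BASP1 +/+ with hCD20TamCre+/-), with 3 libraries each. All mice therefore carried the tamoxifen-activated Cre of B cells, all were immunized with NP-KLH, a hapten on a carrier protein, and all received 1 mg tamoxifen on day 5, day 7 and day 9, with the cells taken on day 10. The cells were enriched on beads and then sorted, and the age of the mice was not given. The libraries are numbered 1 to 3 in each group, and nothing in the labels ties a library to its own mouse. All p-values thus measure the spread between these libraries, which may be technical. For most genes that spread is taken mainly from other genes of like level.

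Values are on the log2 scale of counts per 1000000 reads (CPM). Basp1, the targeted gene, averaged 8.70 CPM in KO and 49.7 CPM in WT libraries (log2 difference -2.51 ± 0.45, SD, n = 3 pairs; limma adjusted p = 3.3e-16). All 9 listed germinal centre markers were tested, and their summed level was 4216 to 4370 CPM in KO and 4360 to 4518 CPM in WT libraries. The 5 general B cell markers summed to 7371 to 7645 CPM in KO and 7878 to 8170 CPM in WT libraries, with no overlap. Of the plasma cell markers, Prdm1 (2.20 CPM in KO and 1.16 CPM in WT libraries; limma adjusted p = 0.256) and Irf4 (15.8 CPM in KO and 10.9 CPM in WT libraries; adjusted p = 0.0636) were higher in KO in all 3 pairs without passing 5% FDR. Sdc1, too low to be tested, was also higher in all 3. Igj (1656 CPM in KO and 1850 CPM in WT libraries; limma adjusted p = 0.331) and Xbp1 (371 and 357 CPM; adjusted p = 0.895) were mixed across pairs. The summed level of the list, most of it Igj, was 1973 to 2159 CPM in KO and 2104 to 2315 CPM in WT libraries. Of the T cell markers, Cd3e held the most frequent listed value (-5.063 on the log2 scale) in all libraries. Cd3d, Cd3g, Cd4 and Cd8a were too low to be tested, the highest being Cd3d (0.104 CPM in KO and 0.267 CPM in WT libraries). Lck alone was tested (228 CPM in KO and 194 CPM in WT libraries; limma adjusted p = 0.212). Neutrophil markers summed to 0.129 to 0.715 CPM in KO and 0.440 to 1.91 CPM in WT libraries. The part of these marker levels in the chaperone values was not tested. The deposited values hold no difference between replicate numbers, since KO and WT values of the same number have the same sum for every gene to within 0.001. What remains for a gene is its mean and 3 paired differences, KO minus WT. Groups fail to overlap whenever the 3 differences have 1 sign. Read depth per library is unknown. A lower level of a transcript in such bulk samples cannot be told apart from fewer cells that carry it.

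Chaperones of the Hsp70 family bind short hydrophobic stretches of unfolded proteins in a cycle driven by ATP. J-domain proteins bring clients and start ATP hydrolysis, nucleotide exchange factors such as the Hsp110 proteins and BAG3 reset the cycle, and Hsp90 takes over clients close to their native fold, among them many kinases. Hsp60 and Hsp10 form a folding chamber in mitochondria. The transcription factor HSF1 raises the inducible members when proteins unfold, by binding repeats of the unit GAA in alternating orientation, called heat shock elements. Because heat, isolation and sorting of cells can switch on Hspa1a, Hspa1b and immediate early genes, the family is often read as a sign of how cells were handled.

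The Hspa1a and Hspa1b promoters are shown because these are the classic heat-inducible genes, and the Hspe1 promoter because it holds a longer element and also serves Hspd1. Each line gives the 250 bases before the annotated start (RefSeq, GRCm38.p6), 5′ to 3′ on the gene's strand. Capitals mark GAANNTTC or TTCNNGAA, which are facing units of the element and read the same on both strands, including the overlapping runs that make up 3 units. The stretches lie at chr17:34972157-34972406 (minus strand), chr17:34959239-34959488 (minus strand) and chr1:55087898-55088147 (plus strand).
Hspa1a: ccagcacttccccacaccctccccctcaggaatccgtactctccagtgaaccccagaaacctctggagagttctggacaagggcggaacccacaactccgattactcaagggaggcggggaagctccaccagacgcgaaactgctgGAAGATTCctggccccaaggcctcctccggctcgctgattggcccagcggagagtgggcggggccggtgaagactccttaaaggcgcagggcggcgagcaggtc
Hspa1b: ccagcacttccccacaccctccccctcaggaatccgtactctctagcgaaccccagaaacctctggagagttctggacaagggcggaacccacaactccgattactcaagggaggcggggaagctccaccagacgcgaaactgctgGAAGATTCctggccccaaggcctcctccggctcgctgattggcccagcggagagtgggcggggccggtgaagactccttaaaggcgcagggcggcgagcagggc
Hspe1: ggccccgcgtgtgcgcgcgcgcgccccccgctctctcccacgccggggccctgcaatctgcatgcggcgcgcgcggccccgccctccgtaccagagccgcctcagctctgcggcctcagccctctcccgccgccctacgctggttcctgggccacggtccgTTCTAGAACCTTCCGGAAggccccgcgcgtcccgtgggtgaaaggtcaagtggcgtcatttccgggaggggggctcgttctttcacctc
Of their 250 bases, Hspa1a and Hspa1b differed at 3. Each held 1 match, 96 bases before the start. Hspe1 held 3 overlapping matches that form 2 overlapping elements of 3 units (a facing pair followed by NN and the next unit in turn), ending 71 bases before its start. A Hspd1 window on the opposite strand covers 285 of the same 300 bases, so both genes count the same element.

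Promoter windows (250 bases before to 50 after a start) were listed for 57 of the 72 genes. A facing pair of units occurred in 17 of the 57 (29.8%), against 17.0% of the 27025 genes in the table. The form with 3 units occurred in 4 of the 57 (7.02%), namely Hspd1, Hspe1, Hsph1 and Dnajb6, against 0.662% of all genes. Genes without a listed window included Hspa8, Hsp90aa1, Hsp90ab1 and Hsf1, so these counts say nothing about their promoters. Dnajb1 had listed windows and no match in them. A match describes letters in a window and is no evidence of binding. Of 11 tested genes with a facing pair, 7 had a positive and 4 a negative mean difference between KO and WT on the log2 scale, with a median of 0.032 and pair medians of 0.034, 0.138 and -0.144. Of 30 with a window and no match, 15 had each sign, and the other tested genes had no window.

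In these cells the constitutive Hsp90 and Hsp70 transcripts lay far above those of the inducible Hsp70 genes Hspa1a and Hspa1b. Of the 72 genes, 53 had a geometric mean of at least 1 CPM and were tested, and 11 lay below that. The other 8 held -5.063 in all 6 libraries (Dnajb8, Dnajc5b, Dnajc5g, Dnajc6, Dnajc22, Hspb3, Hspb7 and Hspb8). That is the most frequent listed value, and some values lie below it, such as -5.591 for Hspb2 in WT library 2. Per kilobase of exon, the highest levels were those of Hsp90ab1, the constitutive Hsp90 (564 CPM per kb), and Hspa8, the constitutive Hsp70 (438 CPM per kb). Dnajc9, a J-domain protein that also binds histones H3 and H4, followed at 166 CPM per kb, then Hspd1 (Hsp60) at 145 and Dnajc8, a nuclear J-domain protein, at 108 CPM per kb. Exon lengths here join all annotated transcripts, so genes with long rare exons look lower than they are.

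The inducible Hsp70 genes had low values in both groups, with group means around 1 CPM or below. Hspa1a (chromosome 17, 34969190 to 34972156) had -0.998, -0.39 and -0.38 log2 CPM in KO libraries 1 to 3, against -0.93, -1.54 and -1.54 in WT libraries. It stayed below 1 CPM in all 6. Hspa1b (chromosome 17, 34956436 to 34959238) had -0.57, 0.61 and -0.01 in KO libraries, against 0.23, -0.95 and -0.33 in WT libraries, so the groups overlapped. The open reading frames of the 2 genes were 99.4% identical, and 52.7% of all stretches of 75 bases in the Hspa1a transcript occurred unchanged in that of Hspa1b. The sources used here do not say how the counting treated such reads. The summed level of both, which lacks any shared reads that the counting dropped, was 1.18, 2.29 and 1.76 CPM in KO libraries 1 to 3, against 1.70, 0.861 and 1.14 CPM in WT libraries. It was higher in KO in pairs 2 and 3 and lower in pair 1. Hspb1 (Hsp27), the inducible small heat shock protein, averaged 0.0541 CPM in KO and 0.145 CPM in WT libraries. None of these 3 genes entered the test, because of the limit on the mean.

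**Figure D1:**
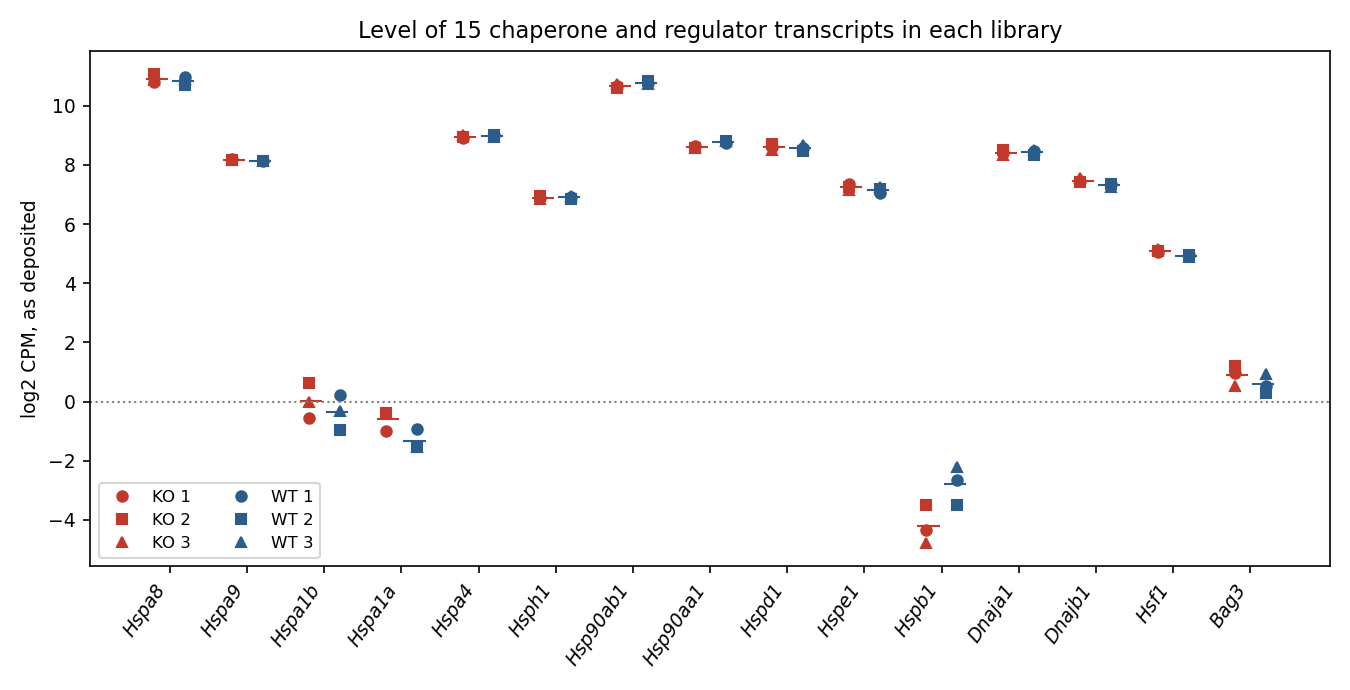
Level in log2 CPM (vertical axis) of 15 chaperone and regulator transcripts in each library, KO in red on the left and WT in blue on the right of each gene, with marker shapes for the replicate number and bars for group means. The dotted line is 1 CPM: Hspa8 and Hsp90ab1 lie above 10, while Hspa1a lies below the line in all 6 libraries and Hspb1 far below it.

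No member passed 5% FDR between KO and WT. By limma with Benjamini-Hochberg adjustment over 10133 genes, 0 of the 53 tested members were called, where 0.266% of all tested genes were (0.168% higher and 0.0987% lower). At an unadjusted p under 0.05 there were 7 of 53 (13.2%), 2 higher and 5 lower, where 8.82% of all tested genes lay there (4.16% higher and 4.66% lower). The groups did not overlap for 19 members (35.8%), 9 higher and 10 lower in KO, where 27.7% of all tested genes did not overlap (15.2% higher and 12.5% lower). The mean difference was positive for 28 and negative for 25 members, with a median of 0.026 on the log2 scale, beside 51.3% positive (5202 genes) and a median of 0.004 over all tested genes.

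The data bound these differences fairly closely for abundant members. For 46 of the 53 the mean difference was smaller than 0.2 in size, and for 44 the 95% interval of limma, not adjusted for the number of genes, lay between -0.5 and 0.5. Its width also rests mainly on the spread of other genes of like level. The median half-width of that interval was 0.153 for the 25 members at 64 CPM or more, 0.242 for 17 members between 8 and 64 CPM, and 0.441 for 11 between 1 and 8 CPM. Across the 3 pairs, differences had a median SD of 0.125 for members and 0.112 for all genes at 64 CPM or more, 0.141 and 0.162 between 8 and 64 CPM, and 0.259 and 0.342 between 1 and 8 CPM.

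**Figure D2:**
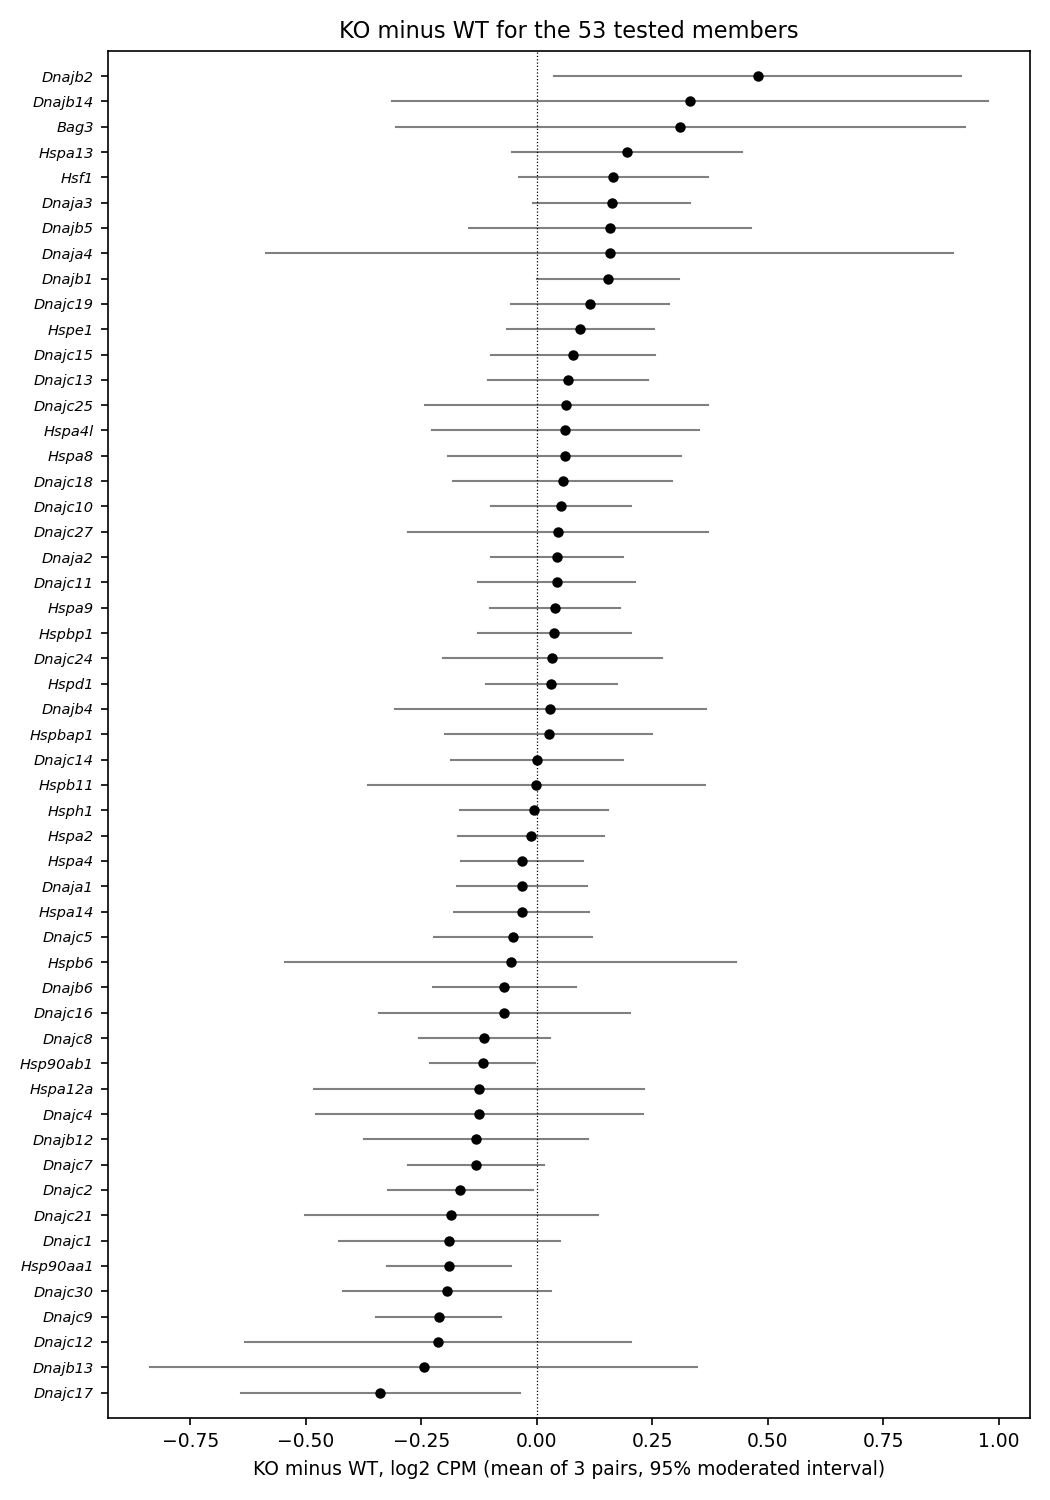
Log2 difference KO minus WT (horizontal axis; mean of 3 pairs, 95% moderated interval as a grey line) for the 53 tested members in order of size. The means run from -0.34 for Dnajc17 to 0.48 for Dnajb2, and intervals widen for genes of low level.

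HSF1, the regulator of the heat shock response, had a transcript that was slightly higher in every KO library without passing the test. Hsf1 had 5.06, 5.08 and 5.14 log2 CPM in KO libraries, against 4.97, 4.94 and 4.88 in WT libraries. The difference was 0.17 ± 0.09 (SD, n = 3 pairs; limma adjusted p = 0.711). Bag3, a nucleotide exchange factor and heat shock target, had 0.95, 1.20 and 0.54 in KO libraries, against 0.53, 0.28 and 0.95 in WT libraries, so the groups overlapped and the third pair went the other way (0.31 ± 0.67, adjusted p = 0.853).

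Both Hsp90 transcripts had lower means in KO. Hsp90aa1, the inducible form (chromosome 12, 110690605 to 110702728), had 8.64, 8.57 and 8.57 log2 CPM in KO libraries, against 8.74, 8.81 and 8.81 in WT libraries. The groups did not overlap, and the difference was -0.19 ± 0.08 (95% interval -0.32 to -0.06; limma adjusted p = 0.292). Hsp90ab1 (chromosome 17, 45567775 to 45573271) had 10.67, 10.60 and 10.72 in KO libraries, against 10.78, 10.85 and 10.72 in WT libraries. Its difference was -0.12 ± 0.13 (adjusted p = 0.537), with none in pair 3.

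The Hsp70 and Hsp110 groups showed no common direction. Of 6 tested Hsp70 genes 3 were higher and 3 lower, with means from -0.12 for Hspa12a, a distant relative, to 0.20 for Hspa13. Hspa8 had 10.80, 11.07 and 10.86 log2 CPM in KO libraries, against 10.96, 10.69 and 10.90 in WT libraries. Its mean difference of 0.06 ± 0.28 (limma adjusted p = 0.938) joined a difference of 0.38 in pair 2 to values of -0.16 and -0.04 in pairs 1 and 3, and without pair 2 it was -0.10. Hspa13, an ATPase of the microsomes, had 4.27, 4.23 and 4.26 in KO libraries, against 4.04, 4.08 and 4.05 in WT libraries. That is a difference of 0.20 ± 0.04, larger than the spread of its own pairs, but the test, which takes most of its spread from genes of like level, gave an adjusted p of 0.723. The mitochondrial Hspa9 differed by 0.04 ± 0.02 and Hspa14, a partner of ribosome-bound chaperones, by -0.03 ± 0.04. Hspa2, best known from the male germ line, averaged 136 CPM in KO and 138 CPM in WT libraries. The exchange factors Hspa4, Hsph1 and Hspa4l differed by -0.03 ± 0.10, -0.01 ± 0.10 and 0.06 ± 0.05.

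Hsp60 and Hsp10, whose genes share a promoter, were measured at 8.60, 8.70 and 8.49 log2 CPM (Hspd1) in KO libraries, against 8.56, 8.46 and 8.67 in WT libraries. Hspe1 had 7.37, 7.26 and 7.16 in KO libraries, against 7.06, 7.17 and 7.27 in WT libraries. Both overlapped between groups and were higher in KO in pairs 1 and 2 and lower in pair 3, with mean differences of 0.03 ± 0.20 and 0.09 ± 0.21 (limma adjusted p = 0.948 and 0.816). Among small heat shock proteins only Hspb6 was tested, at 2.89 CPM in KO and 3.00 CPM in WT libraries (-0.06 ± 0.26).

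J-domain proteins made up most of the members. Of the 22 tested class C genes, 10 had a positive and 12 a negative mean, 9 were lower and 3 higher in all pairs (54.5%, beside 27.7% of all tested genes), and the median was -0.061. Dnajc9 (chromosome 14, 20384638 to 20388910) had the smallest p of all members. It had 8.54, 8.47 and 8.55 log2 CPM in KO libraries, against 8.71, 8.78 and 8.70 in WT libraries. The groups did not overlap, and the difference was -0.21 ± 0.08 (95% interval -0.35 to -0.08; limma adjusted p = 0.212). Dnajc2, which works at the ribosome with Hspa14, had 7.16, 7.03 and 7.18 in KO libraries, against 7.25, 7.38 and 7.24 in WT libraries (-0.17 ± 0.16, adjusted p = 0.518). Dnajc17, a nuclear J-domain protein, averaged 9.60 CPM in KO and 12.1 CPM in WT libraries (-0.34 ± 0.29, adjusted p = 0.472). Class C genes of the mitochondrion had means of either sign: Dnajc19, of the import motor, differed by 0.12 ± 0.12 and Dnajc15, of the inner membrane, by 0.08 ± 0.20, while Dnajc30 differed by -0.19 ± 0.14. The endosomal Dnajc13 differed by 0.07 ± 0.21.

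Of 8 tested class B J-domain genes 5 had a positive mean, with a median of 0.092. Dnajb1 (Hsp40), the inducible partner of Hsp70, had 7.45, 7.42 and 7.54 log2 CPM in KO libraries, against 7.34, 7.37 and 7.24 in WT libraries. It was higher in all 3 pairs, by 0.15 ± 0.13 (95% interval 0.00 to 0.31; limma adjusted p = 0.557). Dnajb2 (chromosome 1, 75236406 to 75245692), which passes ubiquitinated clients to the proteasome, had 2.15, 2.09 and 2.30 in KO libraries, against 1.73, 1.79 and 1.58 in WT libraries. Its difference of 0.48 ± 0.22 was the largest upward one among tested members (adjusted p = 0.492), at 4.53 CPM in KO and 3.25 CPM in WT libraries. Dnajb5 differed by 0.16 ± 0.25, Dnajb6, which holds back aggregation, by -0.07 ± 0.09, the ER membrane protein Dnajb12 by -0.13 ± 0.14, and Dnajb13, of motile cilia and sperm tails, by -0.24 ± 0.61. In class A, Dnaja1 had 8.39, 8.51 and 8.34 in KO libraries, against 8.47, 8.34 and 8.52 in WT libraries (-0.03 ± 0.18), and Dnaja2 differed by 0.04 ± 0.10. The mitochondrial Dnaja3 differed by 0.16 ± 0.18 (adjusted p = 0.607) and Dnaja4, at 1.11 CPM in KO and 0.992 CPM in WT libraries, by 0.16 ± 0.93.

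The other Hsp-named genes differed little: Hspbp1, an exchange factor of Hsp70, by 0.04 ± 0.16, Hspbap1 by 0.03 ± 0.13 and Hspb11 by -0.001 ± 0.31.

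Taken by replicate number, the members had no common direction. Their median difference was -0.017 in pair 1, 0.048 in pair 2 and -0.071 in pair 3, beside 0.003, 0.011 and 0.004 for all tested genes. The number of positive members was 25, 32 and 20 of 53. The median of the mean differences changed sign with the pairs used: leaving out pair 1 gave -0.0015, leaving out pair 2 gave -0.038 and leaving out pair 3 gave 0.026. In pair 2 Bag3 (0.92), Hspa8 (0.38) and Hspd1 (0.23) were higher in KO while Hsp90ab1 (-0.25), Hsp90aa1 (-0.235) and Dnajc9 (-0.30) were lower, and the Hspa1a and Hspa1b sum was 2.29 CPM in KO 2 and 0.861 CPM in WT 2. In the same pair the 7 listed markers of naive and memory B cells summed to 426 CPM in KO 2 and 311 CPM in WT 2, against 355 CPM in KO 1 and 372 CPM in WT 1, and 334 CPM in KO 3 and 394 CPM in WT 3. Their part in the chaperone values was not tested. Over all 3 pairs, markers of naive and memory B cells ranged from 334 to 426 CPM in KO and from 311 to 394 CPM in WT libraries.

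**Figure D3:**
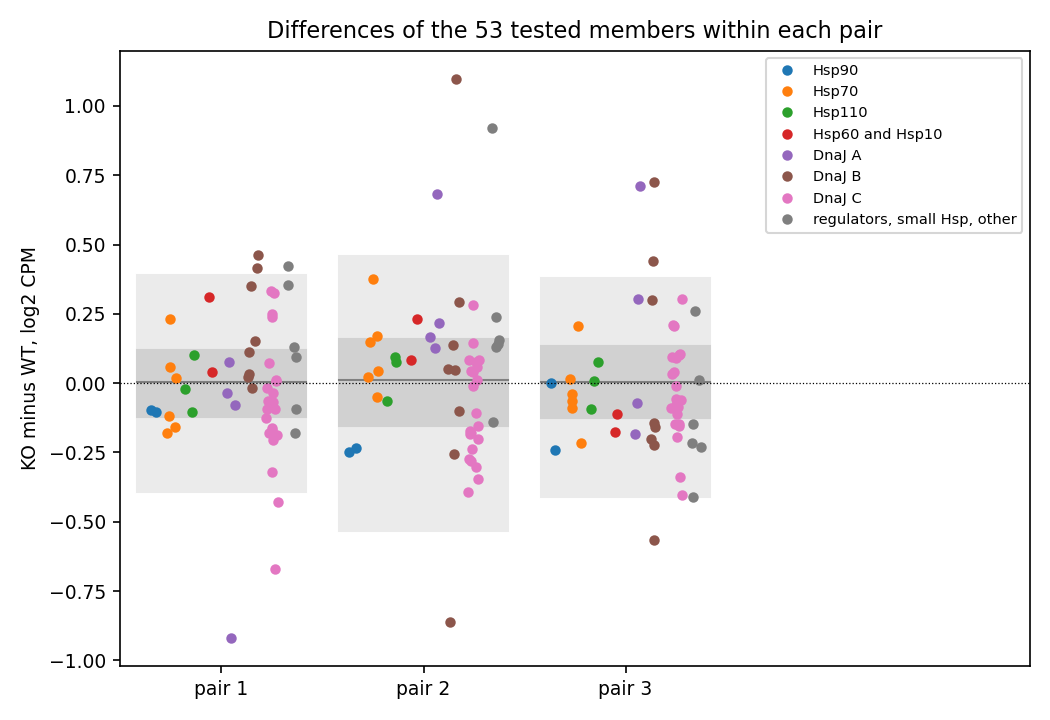
Log2 difference KO minus WT (vertical axis) of the 53 tested members within each pair of equal replicate number, coloured by class. Grey boxes span the 25th to 75th and pale boxes the 5th to 95th percentile of all 10133 tested genes; members scatter on both sides of 0 in every pair, with medians of -0.017, 0.048 and -0.071.

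Partners of the chaperones outside the symbol rule held no called gene either. For the counts below, 0.266% of all tested genes were called and 8.82% had an unadjusted p under 0.05. A positive mean was found for 51.3% of all tested genes. Of 30 tested co-chaperones of Hsp90 and Hsp70, 24 had a negative and 6 a positive mean, with a median of -0.050, and 0 passed 5% FDR (1 had an unadjusted p under 0.05). Of these 30 genes 14 were positive in pair 1 (median -0.004), 9 in pair 2 (-0.024) and 6 in pair 3 (-0.1105). Among them Stip1, which bridges Hsp70 and Hsp90, differed by -0.15 ± 0.06 (limma adjusted p = 0.505) and Ahsa1, the activator of the Hsp90 ATPase, by -0.14 ± 0.04 (adjusted p = 0.598), both lower in all 3 pairs, and Bag6 by -0.25 ± 0.43 (adjusted p = 0.617). Of 16 tested heat shock response genes outside the rule, a list that also holds Stip1 and Ahsa1, 6 were positive and 10 negative and 0 passed (2 had an unadjusted p under 0.05). The smallest p was that of the polyubiquitin gene Ubb, which had 9.33, 9.21 and 9.15 log2 CPM in KO libraries, against 9.38, 9.51 and 9.56 in WT libraries (-0.25 ± 0.18, adjusted p = 0.0694). The TRiC chaperonin, which folds actin and tubulin, and its helper prefoldin had 7 positive and 9 negative of 16 members and none called (0 with an unadjusted p under 0.05); Cct8 differed by -0.06 ± 0.09, Pfdn4 by -0.08 ± 0.15 and Pfdn5 by 0.09 ± 0.05. Of these 16 genes 15 were positive in pair 1 (median 0.048), 11 in pair 2 (0.066) and 1 in pair 3 (-0.118). The ER chaperones left out by the rule split 3 to 3, with none called (0 with an unadjusted p under 0.05). In pair 2 all 6 were higher in KO (median 0.207), and in pair 1 none was (-0.117). Hyou1 differed by 0.13 ± 0.18, Dnajb9 by 0.09 ± 0.21 and Dnajb11 by -0.07 ± 0.08.

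Immediate early genes, the other transcripts often read as a sign of handling, were measured beside the chaperones. Of 31 listed genes 23 were tested, and 2 rose and 0 fell at 5% FDR, beside 0.168% of all tested genes that rose and 0.0987% that fell. At an unadjusted p under 0.05 there were 7 of 23 (30.4%), 4 higher and 3 lower, beside 8.82% of all tested genes. Egr2, an early target of antigen receptor signalling, had 4.15, 4.20 and 4.06 log2 CPM in KO libraries, against 3.44, 3.39 and 3.53 in WT libraries (limma adjusted p = 0.00366). Jun, a subunit of AP-1, had 2.50, 2.44 and 2.20 in KO libraries, against 1.37, 1.43 and 1.66 in WT libraries (adjusted p = 0.0482). Jun did not pass without replicate 1 (log2 difference 0.78, limma adjusted p = 0.225), without replicate 2 (0.84, adjusted p = 0.350) or with non-robust moderation (0.90, adjusted p = 0.153). Egr2 did not pass without replicate 2 (0.61, limma adjusted p = 0.116), and neither passed without the variance trend (adjusted p = 0.652 for Jun and 0.541 for Egr2). Jund, a relative of Jun, differed by -0.18 ± 0.11 without passing (adjusted p = 0.311). Over the 23 genes 13 were positive and 10 negative, and their medians by pair were -0.062, 0.134 and 0.018. Nuclear non-coding RNAs, whose share can mark RNA quality, had pair medians of -0.249, -0.023 and 0.250 over 7 tested genes with 0 called (2 with an unadjusted p under 0.05). Among these Rpph1, the RNA of RNase P, differed by 1.08 ± 0.26 (adjusted p = 0.0749), Neat1 by -0.64 ± 0.36 (adjusted p = 0.428) and Gas5 by 0.12 ± 0.14. Malat1, the most abundant of them (340 CPM in KO and 454 CPM in WT libraries), had differences of -0.38, -1.25 and 0.38 in pairs 1 to 3. Kcnq1ot1 had -0.50, -1.11 and 0.84. In pair 2, 3 of the 7 were positive. The part of RNA quality in the chaperone values was not tested.

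**Figure D4:**
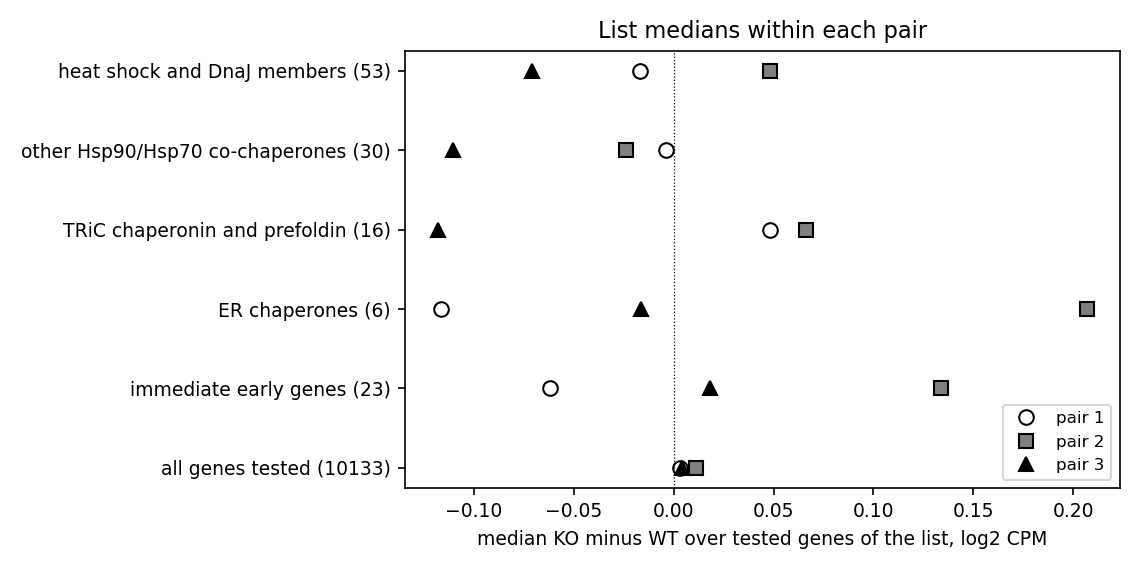
Median log2 difference KO minus WT (horizontal axis) over the tested genes of the lists shown, by pair (open circle, pair 1; grey square, pair 2; black triangle, pair 3), with the number of tested genes in brackets. The heat shock response genes outside the rule and the nuclear non-coding RNAs are not drawn. The heat shock and J-domain genes have medians of -0.017, 0.048 and -0.071, all tested genes stay within 0.011 of 0, and ER chaperones run from -0.117 in pair 1 to 0.207 in pair 2.

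Members below the limit on the mean were not tested. Their largest mean difference downward was that of Hspb1, which had -4.35, -3.50 and -4.78 log2 CPM in KO libraries, against -2.64, -3.50 and -2.21 in WT libraries. Dnajc28, a mitochondrial J-domain protein, was lower in all 3 KO libraries, at 0.098 CPM in KO and 0.237 CPM in WT libraries on average. Dnajb7 (0.234 CPM in KO and 0.170 CPM in WT libraries) and Hspg2 (0.203 and 0.129 CPM in KO and WT libraries) were higher in all 3. At such levels a value rests on few reads, and the deposited numbers do not say how many.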

How the data were processed

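Polyadenylated RNA was sequenced from 3 KO and 3 WT libraries. The submitters' processing notes name build mm10 and, among the authors' tools, limma, STAR 2.6.1a and featureCounts (Subread 2.0.1), with reads trimmed by Trim Galore 0.6.5 and checked in FastQC 0.11.7. Settings, annotation and strand were not stated there. Log2 values were deposited, and made linear they sum to 997617 to 1000513 per library, so they were read as log2 CPM. The highest value over all libraries was 13.941. KO and WT values of 1 replicate number have equal sums, which removal of a replicate effect leaves. The planned fit therefore holds the replicate number as a block; whether the numbers pair the samples cannot be checked, since that correlation is fixed by the equal sums.

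The contrast of KO against WT was fitted in limma 3.58.1 under R 4.3.3 (terms for genotype and replicate number, variance trend, robust moderation, two-sided, Benjamini-Hochberg adjustment). Genes with a geometric mean of at least 1 CPM and more than 1 distinct value entered (10133). There were 2 residual and a median of 81.2 prior degrees of freedom per gene. The fit was tested on simulated data. For 3 pairs the smallest two-sided p of an exact sign-flip test is 0.25. SDs are over the 3 paired differences, and group CPM are geometric means. Coordinates and exon lengths are from GENCODE M21 (GRCm38), promoters from RefSeq (GRCm38.p6). A comparison of protein sequences was planned and not made. Named genes are Hsf1, Bag3 and 13 classic chaperones, members past 5% FDR, the 5 most abundant, up to 3 per class and direction by smallest p, and 3 per further list; other genes were named after their values were seen. Members, lists and rules were chosen with earlier results of these data known.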

Additional observations from a re-analysis of the deposited data

How the results depend on the processing

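Over the settings tried, 0 members were called except without the replicate block. There 1 of 53 was (Dnajc9, limma adjusted p = 0.0443), beside 142 of all 10133 tested genes (1.40%). As the files lack replicate differences, that fit counts degrees of freedom already spent. The count of all genes called was 95 with no filter on low values (42 higher and 53 lower), 0 without the variance trend (640 with an unadjusted p under 0.05), 12 with non-robust moderation, and 11 to 136 when the libraries of 1 replicate number were left out (27 higher and 109 lower without replicate 1, 4 and 7 without replicate 2, 28 and 74 without replicate 3); the total moved by less than 1.5 times with a mean of at least 4 CPM, with log2(CPM + 1) and with centring on the library median. Members with an unadjusted p under 0.05 numbered 7 in the main fit, beside 894 of all tested genes. There were 2 without the variance trend (beside 640), 2 without replicate 2 (beside 400) and 15 without the replicate block (beside 2361). The other settings gave 5 to 7. The median member difference ran from -0.038 to 0.0255 when 1 replicate number was left out and kept within the spread of the pair medians otherwise. Of the 53 tested members, none of them called, 22 turned direction when 1 replicate number was left out and 1 of these under another setting too. For the 15 of these that the naming rule holds, the lowest and highest values were -0.1305 and 0.044 for Dnaja1, -0.118 and 0.696 for Dnaja4, -0.542 and 0.063 for Dnajb13, -0.05 and 0.156 for Dnajc13, -0.0015 and 0.1915 for Dnajc15, -0.104 and 0.0395 for Hspa2, -0.0855 and 0.005 for Hspa4, -0.098 and 0.1695 for Hspa8, -0.178 and 0.106 for Hspb11, -0.2035 and 0.0305 for Hspb6, -0.0395 and 0.085 for Hspbap1, -0.0085 and 0.131 for Hspbp1, -0.0675 and 0.135 for Hspd1, -0.0145 and 0.1975 for Hspe1 and -0.057 and 0.038 for Hsph1. The cause was not tested. Depth is unknown, so the reads behind values of low genes cannot be given.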
